A study of Mus musculus with 18 samples.

Results

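AMP-activated protein kinase (AMPK) is described here through the 6 subunit genes Prkaa1, Prkaa2, Prkab1, Prkab2, Prkag1 and Prkag2, and through Stk11, which encodes the upstream kinase LKB1. Every probe set that the platform annotation assigns to 1 of these 7 genes alone was taken, and probe sets annotated to several genes were not used. This gave 7 of 18193 genes and 17 of the 45101 probe sets on the array. Of these, 16 were bright enough to be tested and 1, for Prkag2, was not. The genes were chosen by name and not by a cut on their measured values, but with earlier results of these data known.

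The series asked how deletion of the gene for serum response factor (SRF), which activates muscle genes and genes induced by growth signals, changes expression in the adult mouse heart, both at rest and during treatment with phenylephrine (PE), which stimulates alpha-1 adrenergic receptors. Total RNA of cardiac ventricles from 18 male mice was measured on Affymetrix arrays, 1 heart per array. The mice are labelled CR7BL6 in strain and 10 weeks old. Mutants are labelled SRFHKO, and controls were their littermates with the SRF-flex2neo allele. All 18 mice, controls included, had received 0.7 mg of tamoxifen intraperitoneally on 3 days. At day 8 there were 2 control and 4 SRFHKO hearts, and at day 25 there were 3 hearts each of control, SRFHKO, control with PE and SRFHKO with PE. Osmotic minipumps delivered PE at 80 mg/kg/day, starting on day 10 and ending on day 25. No label names the promoter that drives the Cre recombinase, and no probe set known to lie in the deleted part of Srf was identified, so the genotype labels were not checked on the target.

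AMPK senses the energy state of the cell. It is a complex of a catalytic alpha subunit, a beta subunit that holds the complex together and binds glycogen, and a gamma subunit that binds AMP, ADP and ATP. LKB1 phosphorylates the alpha subunit when AMP rises, and the active kinase then slows lipid and protein synthesis and favours fatty acid oxidation, glucose uptake and autophagy. In the heart it is known for its part in the response to ischaemia and pressure overload, and mutations of the gamma-2 gene cause a glycogen storage cardiomyopathy.

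Array brightness varied. The 2% trimmed mean lay between 46.6 and 148 before the arrays were scaled to a common value, and between-array correlations of log2 signal were 0.916 to 0.968. SRFHKO arrays of day 25 were brighter than control arrays, at 71.2 to 83.5 against 46.6 to 68.5 without PE and at 75.9 to 85.4 against 52.5 to 75.3 with PE. All 8 cardiomyocyte markers listed were above the filter on dim signal. Of the 6 skeletal muscle markers, Actn3, Myh1, Myh4 and Tnnt3 lay below it, as did the lymphocyte markers Cd2, Cd3e and Cd79a. Signals below are scaled and on a linear scale, and differences are on the log2(scaled signal + 2) scale with their standard error. Adjusted p values are limma's with Benjamini-Hochberg adjustment over all 27000 probe sets tested, with a threshold of 0.05.

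Prkab2 is the gene of the beta-2 subunit that is most abundant in striated muscle. At day 25 without PE its 3 probe sets were lower in SRFHKO than in control hearts, and 2 of the 3 passed the threshold. Within SRFHKO hearts the 3 were higher with PE than without, and 1 of the 3 passed. The levels in SRFHKO hearts with PE overlapped those of control hearts without PE. None of the 13 tested probe sets of the other 6 genes passed the threshold in any of the 9 comparisons. Their smallest adjusted p was 0.0755, for Prkab1 between the genotypes of day 25 averaged over PE.

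Because the study removes SRF, the promoter sequences of the members were read for the CArG box, the short A/T-rich motif that SRF is known to bind. RefSeq promoter windows of 300 bases (250 before and 50 after the start site, GRCm38.p6) were found for all 7 genes, 9 windows in all. Only the Prkab2 window held an exact CArG box, searched on both strands. It lay 30 to 39 bases after the start site, inside the transcribed part. An exact match occurs in 1.63% of all 32851 promoter windows, a match with up to 1 mismatch in 21.1% and with up to 2 in 79.2%. The closest stretch in each of the other members' windows had 2 or 3 mismatches. The Prkab2 stretch is shown because it is the one match among the members, with the CArG box in capitals. A match in the letters is a description and no measurement of binding.
Prkab2, chr3:97658231-97658260, plus strand: ggccttgtagCCATTTTAGGaggaaacccg

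The upstream parts of the promoters of both beta genes are shown for comparison, since they encode the 2 forms of one subunit. Capitals mark GGGCGG, the core of the GC box, or its reverse complement. It is in 35.7% of all promoter windows. The Prkab2 stretch held 5 such hexamers and 18 CpG, and the Prkab1 stretch held 0 hexamers and 24 CpG.
Prkab2, chr3:97657962-97658211, plus strand: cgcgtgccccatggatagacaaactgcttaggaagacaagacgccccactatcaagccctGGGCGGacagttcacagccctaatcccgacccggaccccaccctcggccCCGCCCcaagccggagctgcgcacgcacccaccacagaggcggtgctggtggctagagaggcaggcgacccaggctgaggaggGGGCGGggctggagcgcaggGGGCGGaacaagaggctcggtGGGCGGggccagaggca
Prkab1, chr5:116024429-116024678, minus strand: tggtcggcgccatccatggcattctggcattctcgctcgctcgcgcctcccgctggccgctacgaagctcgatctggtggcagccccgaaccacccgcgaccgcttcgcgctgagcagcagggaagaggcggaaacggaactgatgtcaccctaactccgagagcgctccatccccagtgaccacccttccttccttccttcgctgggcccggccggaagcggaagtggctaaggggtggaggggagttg

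Prkab2 is read by 3 probe sets, of which 1435875_at and 1435874_at derive from the same expressed sequence tag and so do not measure it independently, while 1442001_at derives from another. At day 25 without PE, the signal of 1435875_at was 279, 318 and 313 in the control hearts and 207, 159 and 185 in the SRFHKO hearts. Every SRFHKO heart lay below every control heart. The difference was -0.72 ± 0.12 (SE, n = 3 and 3), or 1.65-fold, with an adjusted p of 0.00652. The second probe set, 1435874_at, gave signals of 229, 207 and 281 in control hearts and 130, 172 and 154 in SRFHKO hearts. These groups also did not overlap. Its difference was -0.65 ± 0.14 (1.56-fold, adjusted p = 0.0198). The third, 1442001_at, gave 105, 119 and 89.3 in control hearts and 77.8, 85.3 and 72.0 in SRFHKO hearts. The order was the same without overlap, and the difference of -0.40 ± 0.19 did not pass (adjusted p = 0.282).

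Of the 16 member probe sets, 2 were called lower in this comparison, where 0.937% of all tested probe sets were called lower and 2.19% in either direction. Ranked by p, 1435875_at was in place 51 of 27000. Groups did not overlap for 5 member probe sets, 4 lower (3 of Prkab2 and 1 of Prkab1) and 1 higher (Stk11), where 11.6% of all probe sets were lower and 9.67% higher without overlap. The median member difference was -0.04, the same as the median of all probe sets. The 2 calls on Prkab2 were both lost when the fit held only the 2 groups compared, with adjusted p of 0.0688 for 1435875_at and 0.122 for 1435874_at. In that fit 93 of all 27000 probe sets were called, against 591 in the main fit. The call on 1435874_at was also lost without control replicate 3 (-0.52, adjusted p = 0.0856), SRFHKO replicate 1 (-0.54, 0.0512) or SRFHKO replicate 3 (-0.66, 0.0716). Calls over all probe sets were 172, 748 and 92 in these fits.

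The tissue markers and array measures that moved with this comparison are given beside it. The summed signal of the 8 cardiomyocyte markers ranged over 80770 to 90700 in the 3 control hearts and 66190 to 77570 in the 3 SRFHKO hearts, and 0 of the 8 genes were called. That of the 7 endothelial markers was 2264 to 2776 against 1886 to 2047, with 1 called lower (Cldn5, named after its value was seen). For the 6 skeletal muscle markers it was 5506 to 6217 against 883 to 1884, of which Ckm, a creatine kinase that the heart also expresses, was called lower. The 3 lung markers summed to 41.8 to 83.1 against 24.8 to 37.0, with Scgb1a1 below the filter. Gapdh 3′ to 5′ signal ratios were 0.868 to 0.945 for control hearts against 0.820 to 0.835 for SRFHKO hearts. In whole ventricle, fewer cells of a type and less RNA per cell cannot be told apart, and the part of the markers and of the RNA measure in the Prkab2 result was not tested. With array brightness as a covariate, 1435875_at differed by -0.82 (adjusted p = 0.0323) and 1435874_at by -0.64 (adjusted p = 0.154). With that covariate 60 of all 27000 probe sets were called, against 591 without it.

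**Figure D1:**
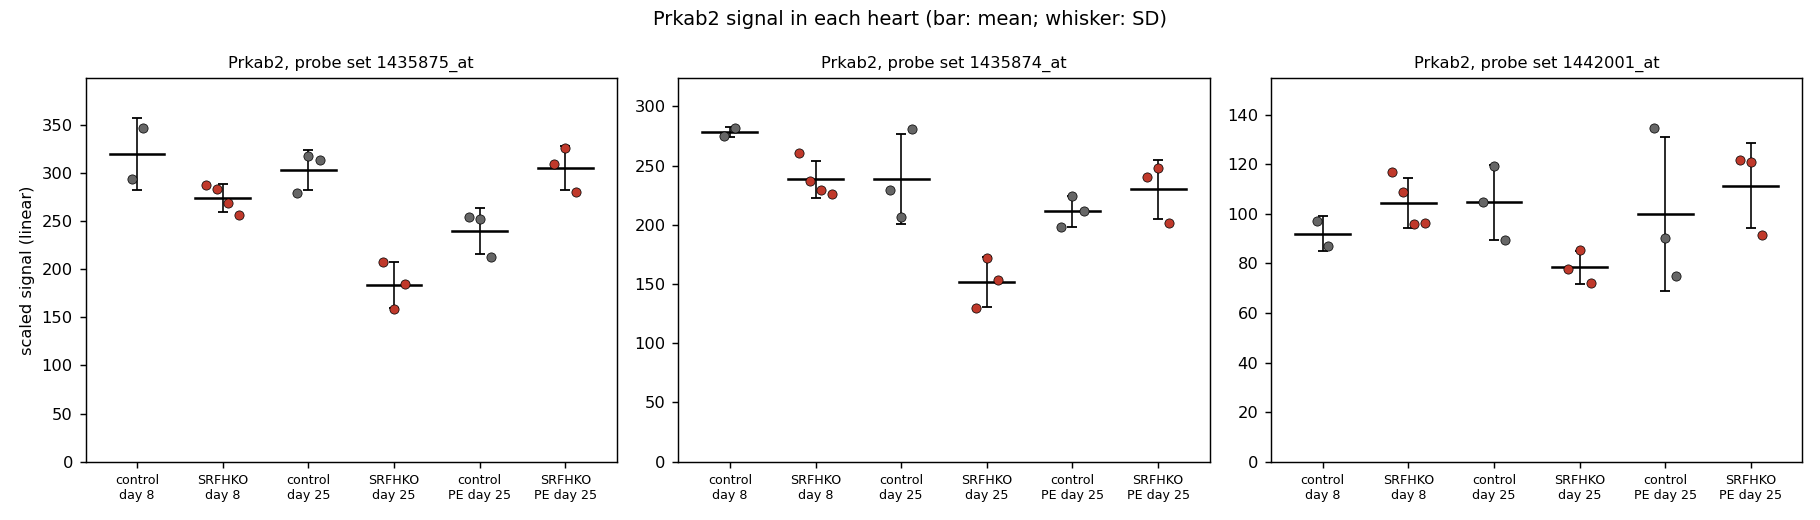
Scaled signal (linear, arbitrary units) of the 3 Prkab2 probe sets in each of the 18 hearts, by group, with control hearts in grey and SRFHKO hearts in red. Bars are means and whiskers SD. For 1435875_at the SRFHKO hearts of day 25 sit between 159 and 207, below all other hearts.

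At day 8, Prkab2 gave no call. The signal of 1435875_at was 293 and 346 in the 2 control hearts and 287, 284, 269 and 256 in the 4 SRFHKO hearts. The SRFHKO hearts lay below both controls, with a difference of -0.22 ± 0.13 (adjusted p = 0.558). For 1435874_at the values were 275 and 281 in control and 261, 237, 229 and 226 in SRFHKO hearts, again without overlap (-0.22 ± 0.14, adjusted p = 0.594). Those 2 probe sets were the only members whose groups did not overlap at day 8, where 8.04% of all probe sets were lower without overlap. Control arrays of day 8 had 18S rRNA signals of 2426 and 3069 and Gapdh 3′ to 5′ ratios of 1.02 and 1.01, against 705 to 1402 and 0.850 to 0.936 in SRFHKO arrays. Summed markers of fibroblasts (7 genes) were 8052 to 12300 against 5383 to 7678, of smooth muscle and pericytes (6 genes) 7115 to 8139 against 5805 to 6530, and of skeletal muscle 4742 to 5182 against 3878 to 4708, with none of those tested called. The part of these measures in the Prkab2 values was not tested. The third probe set, 1442001_at, had overlapping groups and a difference of 0.18 ± 0.20. The test of whether the genotype difference changed from day 8 to day 25 gave -0.51 ± 0.18 for 1435875_at, with an adjusted p of 0.258. By limma, 0 of 16 members were called at day 8 and 0 in that test, where 0.170% and 0.0407% of all probe sets were. At an unadjusted p under 0.05 the member counts were 1 and 4 of 16, where 11.8% and 12.3% of all probe sets were under it. The arrays of the 2 days differed in brightness, so the day cannot be told apart from the set of arrays it was run on.

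Under PE, Prkab2 no longer lay below control in SRFHKO hearts. The signal of 1435875_at was 254, 252 and 212 in control hearts with PE and 309, 326 and 280 in SRFHKO hearts with PE. Every SRFHKO heart was above every control heart, and the difference of 0.35 ± 0.12 did not pass (adjusted p = 0.213). The summed cardiomyocyte markers were 72450 to 85820 in control against 66940 to 69550 in SRFHKO hearts with PE. Skeletal muscle markers summed to 5162 to 6192 against 1087 to 1853, with Ckm called lower, and the 4 measured lymphocyte markers to 158 to 175 against 94.2 to 125, with Cd2, Cd3e and Cd79a below the filter. Their part in the Prkab2 values was not tested. For 1435874_at the values were 198, 224 and 211 in control and 240, 248 and 201 in SRFHKO hearts, which overlapped (0.12 ± 0.14, adjusted p = 0.797). For 1442001_at they were 134, 90.3 and 74.8 against 122, 121 and 91.4, also with overlap (0.19 ± 0.19). No member was called between the genotypes with PE by limma, where 0.930% of all probe sets were, and 2 of 16 had an unadjusted p under 0.05, against 12.8% of all probe sets. Groups did not overlap for 1 member higher (Prkab2) and 2 lower (Prkaa2 and Stk11), against 8.42% and 9.76% of all probe sets.

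The PE differences of Prkab2 had opposite signs in the genotypes, and the one in SRFHKO hearts passed. In SRFHKO hearts 1435875_at went from 207, 159 and 185 without PE to 309, 326 and 280 with it, a difference of 0.73 ± 0.12 (1.66-fold, adjusted p = 0.0251, n = 3 and 3). It was in place 10 of 27000 by p. All 3 Prkab2 probe sets were higher with PE in SRFHKO hearts without overlap, where 7.31% of all probe sets were, and 1 Prkaa2 probe set was lower, where 8.50% were. The other 2 Prkab2 probe sets did not pass, with differences of 0.60 ± 0.14 (adjusted p = 0.0793) for 1435874_at and 0.49 ± 0.19 (adjusted p = 0.386) for 1442001_at. This comparison uses the same SRFHKO hearts without PE as the genotype comparison at day 25, so their low values enter both. Of the 16 members, 1 was called, where 0.122% of all probe sets were called higher and 0.185% in either direction. The summed signals of all 10 marker lists overlapped between these groups, as did array brightness (71.2 to 83.5 against 75.9 to 85.4) and the Gapdh ratio (0.820 to 0.835 against 0.824 to 0.863). Sums over 3 and 3 hearts can overlap while single markers differ. The part of these measures in the Prkab2 values was not tested.

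The call in SRFHKO hearts was lost when only the 2 groups were fitted (adjusted p = 0.109) and without an intensity trend in the variance (0.108). It was also lost when SRFHKO replicate 2 (0.110), SRFHKO replicate 3 (0.0703) or SRFHKO with PE replicate 2 (0.171) was left out. Calls over all probe sets went from 50 to 20, 2, 4, 5 and 2 in these fits, in the order given. The difference stayed between 0.63 and 0.82 over its alternatives.

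In control hearts none of the 3 Prkab2 probe sets passed for PE, and 1435875_at alone had lower values with PE without overlap. The signal of 1435875_at was 279, 318 and 313 without and 254, 252 and 212 with PE. Its difference was -0.34 ± 0.12 (adjusted p = 0.365). The other 2 overlapped, with differences of -0.17 ± 0.14 for 1435874_at (adjusted p = 0.712) and -0.10 ± 0.19 for 1442001_at (adjusted p = 0.898). The 3 lung markers summed to 41.8 to 83.1 without and 13.0 to 29.1 with PE, with Scgb1a1 below the filter, and their part was not tested. By limma 0 members were called in this comparison, where 0.0259% of all probe sets were, and 2 of 16 had an unadjusted p under 0.05, against 10.1% of all probe sets. Without overlap, 1 member probe set was higher (Prkag2) and 3 were lower (Prkab1, Prkab2 and Prkag1), against 5.80% and 8.16% of all probe sets.

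The test of the difference between the PE responses of the genotypes gave 1.07 ± 0.18 for 1435875_at (95% interval 0.71 to 1.44), in place 3 of 27000. It did not pass, with an adjusted p of 0.0644. A single probe set in 27000 passed this test (0.00370%), that of Sprr1a, named after its value was seen. For 1435874_at the estimate was 0.76 ± 0.19 (adjusted p = 0.448) and for 1442001_at 0.59 ± 0.27 (adjusted p = 0.659). The estimate for 1435875_at passed with 1 probe set per gene, where fewer features were tested (adjusted p = 0.0278), and with array brightness as a covariate (adjusted p = 0.0466). Over its alternatives the adjusted p ranged from 0.0278 to 0.325 and the estimate from 0.97 to 1.16. In 83 probe sets (0.307%) SRFHKO hearts were below control without PE and above control with PE, both without overlap, and Prkab2 1435875_at was the only member among them. Counted in either direction, 63 probe sets (0.233%) were opposite without overlap in both genotype comparisons and in both PE comparisons of day 25. Prkab2 1435875_at was again the only member. Averaged over PE, its genotype difference was -0.19 ± 0.09 (adjusted p = 0.227).

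**Figure D2:**
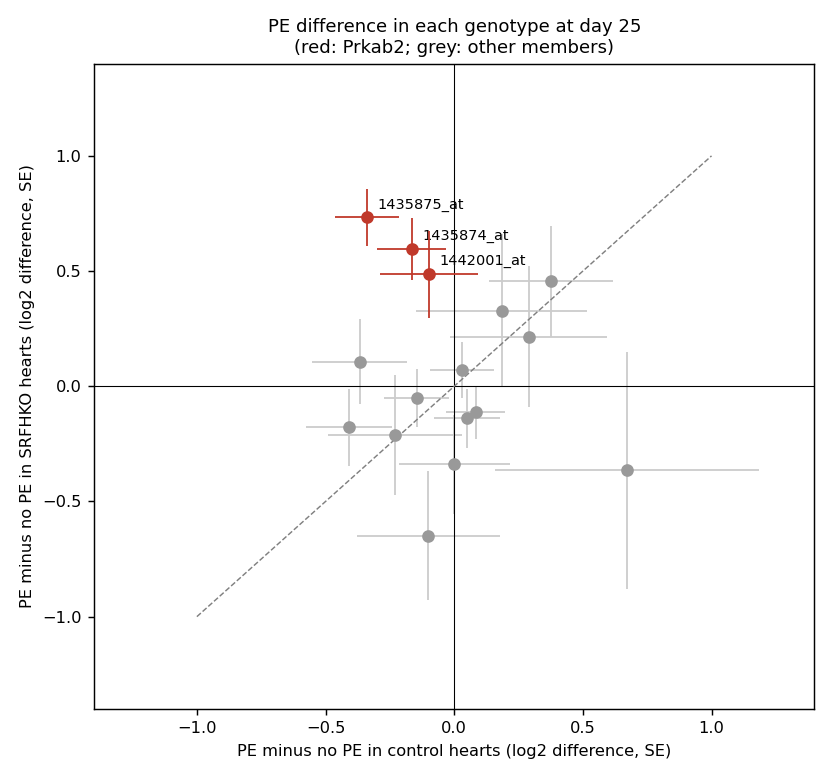
PE minus no PE at day 25 (log2 difference, crosses are SE) in control hearts on the horizontal axis and in SRFHKO hearts on the vertical axis, for the 16 tested probe sets. The dashed line marks equal differences. The 3 Prkab2 probe sets, in red, lie to the left of 0 in control and between 0.49 and 0.73 in SRFHKO hearts.

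By mean level, the groups ran for 1435875_at from control at day 8 through SRFHKO with PE, control at day 25 and SRFHKO at day 8 to control with PE and SRFHKO at day 25. Neighbours among the first 4 overlapped. SRFHKO at day 8 and control with PE did not overlap, nor did control with PE and SRFHKO at day 25.

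Prkab1 encodes beta-1, the other form of the subunit, and its 2 probe sets did not point the same way. The signal of 1424119_at at day 25 was 305, 232 and 250 in control and 181, 181 and 197 in SRFHKO hearts. The groups did not overlap, and the difference of -0.48 ± 0.17 did not pass (adjusted p = 0.141). With PE the values were 184, 184 and 223 in control and 202, 145 and 152 in SRFHKO hearts, which overlapped (-0.25 ± 0.17, adjusted p = 0.573). Control hearts were lower with PE than without, without overlap (-0.41 ± 0.17, adjusted p = 0.423).

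At day 8 the 1424119_at signal was 331 and 227 in control and 293, 347, 412 and 312 in SRFHKO hearts, and the groups overlapped. The change of the genotype difference from day 8 to day 25 was -0.78 ± 0.25 (adjusted p = 0.199). Averaged over PE, the genotype difference of day 25 was -0.37 ± 0.12 (adjusted p = 0.0755), and it passed when SRFHKO with PE replicate 1 was left out (-0.44, adjusted p = 0.0384). With array brightness as a covariate it was -0.24 (adjusted p = 0.598). The second probe set, 1452457_a_at, was higher by 0.28 ± 0.28 in SRFHKO than in control hearts without PE (adjusted p = 0.650). In SRFHKO hearts with PE its values were 76.2, 28.0 and 27.2, so that 1 heart stood well above the other 2. Against the SRFHKO hearts without PE, at 56.5, 68.2 and 62.3, the difference was -0.65 ± 0.28 (adjusted p = 0.440). Without the high heart, replicate 1, it was -1.12 (adjusted p = 0.0162), and without replicate 2 or 3 it was -0.43 (adjusted p = 0.849) or -0.40 (adjusted p = 0.757). The PE difference averaged over genotype was -0.37 ± 0.20 (adjusted p = 0.473), and -0.61 (adjusted p = 0.0436), -0.26 (0.745) and -0.25 (0.673) without replicate 1, 2 and 3.

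The catalytic alpha subunits gave no call. Prkaa2 encodes alpha-2, the main catalytic form in heart muscle, and has 3 probe sets, of which 1429463_at and 1429464_at come from 1 sequence. The signal of 1429463_at at day 25 was 936 ± 93.9 in control, 806 ± 79.3 in SRFHKO, 953 ± 31.2 in control with PE and 846 ± 57.1 in SRFHKO hearts with PE (SD, n = 3 each). The genotype difference was -0.22 ± 0.12 without PE (adjusted p = 0.381) and -0.17 ± 0.12 with PE (adjusted p = 0.603). Only the latter pair of groups did not overlap. Its 95% interval without PE ran from -0.47 to 0.04.

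At day 8 the Prkaa2 signal of 1429463_at was 751 and 510 in the 2 control hearts and between 748 and 808 in the 4 SRFHKO hearts. The difference of 0.32 ± 0.13 did not pass (adjusted p = 0.322). The 2 control hearts lay far apart. Without control replicate 1 the difference was 0.60 (adjusted p = 0.0340) and without control replicate 2 it was 0.04 (adjusted p = 0.984). Each of these fits leaves 1 control heart, which is assumed to vary like the other groups. The change of the genotype difference between the days was -0.54 ± 0.18 (adjusted p = 0.223), with -0.82 (0.0488) when control replicate 1 was left out and -0.26 (0.658) when control replicate 2 was. The other probe sets, 1429464_at and 1434766_at, differed between the genotypes at day 25 by 0.00 ± 0.22 and 0.16 ± 0.13 without PE and by -0.34 ± 0.22 and -0.03 ± 0.13 with it. The 1434766_at signal at day 8 was 794 and 750 in control hearts and 741 to 855 in SRFHKO hearts. It was 498 to 712 in all hearts of day 25, so both genotypes were higher at day 8 on this probe set. The group means of 1429463_at ran the other way, at 630 and 774 on day 8 against 806 to 953 on day 25, though single hearts overlapped. How many of all probe sets separated the days was not counted. The day cannot be told apart from the set of arrays it was run on.

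Prkaa1, the gene of the alpha-1 catalytic subunit found in most tissues, has 1 probe set, with signals of 21.4 to 50.3 over all hearts. At day 25 it was 48.0, 29.9 and 31.1 in control and 31.7, 50.3 and 39.6 in SRFHKO hearts, which overlapped. The difference was 0.16 ± 0.26 without PE (adjusted p = 0.804) and 0.18 ± 0.26 with PE (adjusted p = 0.851). All neighbouring groups overlapped when ordered by level.

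The gamma subunits, which carry the nucleotide-binding sites, gave no call either. Prkag1, gamma-1, had a signal of 476 to 673 in its probe set 1417690_at over the 18 hearts. Group means lay between 571 and 627. The genotype difference at day 25 was -0.09 ± 0.13 without PE (95% interval -0.35 to 0.18, adjusted p = 0.778) and 0.01 ± 0.13 with PE (adjusted p = 0.984). Its second probe set, 1433533_x_at, whose name marks possible cross-hybridisation, differed by -0.16 ± 0.19 and 0.32 ± 0.19 (adjusted p = 0.709 and 0.506).

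Prkag2, gamma-2, has 4 probe sets, of which 1423831_at, 1423832_at and 1451140_s_at come from 1 sequence. The brightest, 1451140_s_at, was 82.5, 96.7 and 79.9 in control hearts and 116, 113 and 108 in control hearts with PE. These groups did not overlap, and the difference of 0.38 ± 0.24 did not pass (adjusted p = 0.633). In SRFHKO hearts it was 97.5, 106 and 71.2 without PE and 210, 113 and 81.7 with PE, where 1 heart lay far above the other 2 (0.46 ± 0.24, adjusted p = 0.569). Averaged over genotype, the PE difference was 0.42 ± 0.17 (adjusted p = 0.329). Its genotype difference was 0.07 ± 0.24 without PE and 0.15 ± 0.24 with PE. The fourth probe set, 1431263_at, had signals of 0.457 to 19.0 and was not tested.

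Stk11, the gene of the kinase LKB1, did not pass in any comparison. The signal of 1418644_a_at at day 25 was 307, 294 and 288 in control and 369, 331 and 313 in SRFHKO hearts. The SRFHKO hearts lay above the controls without overlap, by 0.18 ± 0.12 (adjusted p = 0.426). With PE the values were 341, 320 and 283 in control and 324, 288 and 324 in SRFHKO hearts, and the difference was -0.01 ± 0.12. The second probe set, 1448062_at, was dim, with 27.9, 21.0 and 21.9 in control and 13.6, 4.66 and 8.60 in SRFHKO hearts with PE. Of those SRFHKO hearts, 2 lay below the filter limit of 9.96, and the difference of -1.30 ± 0.51 did not pass (adjusted p = 0.272).

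**Figure D3:**
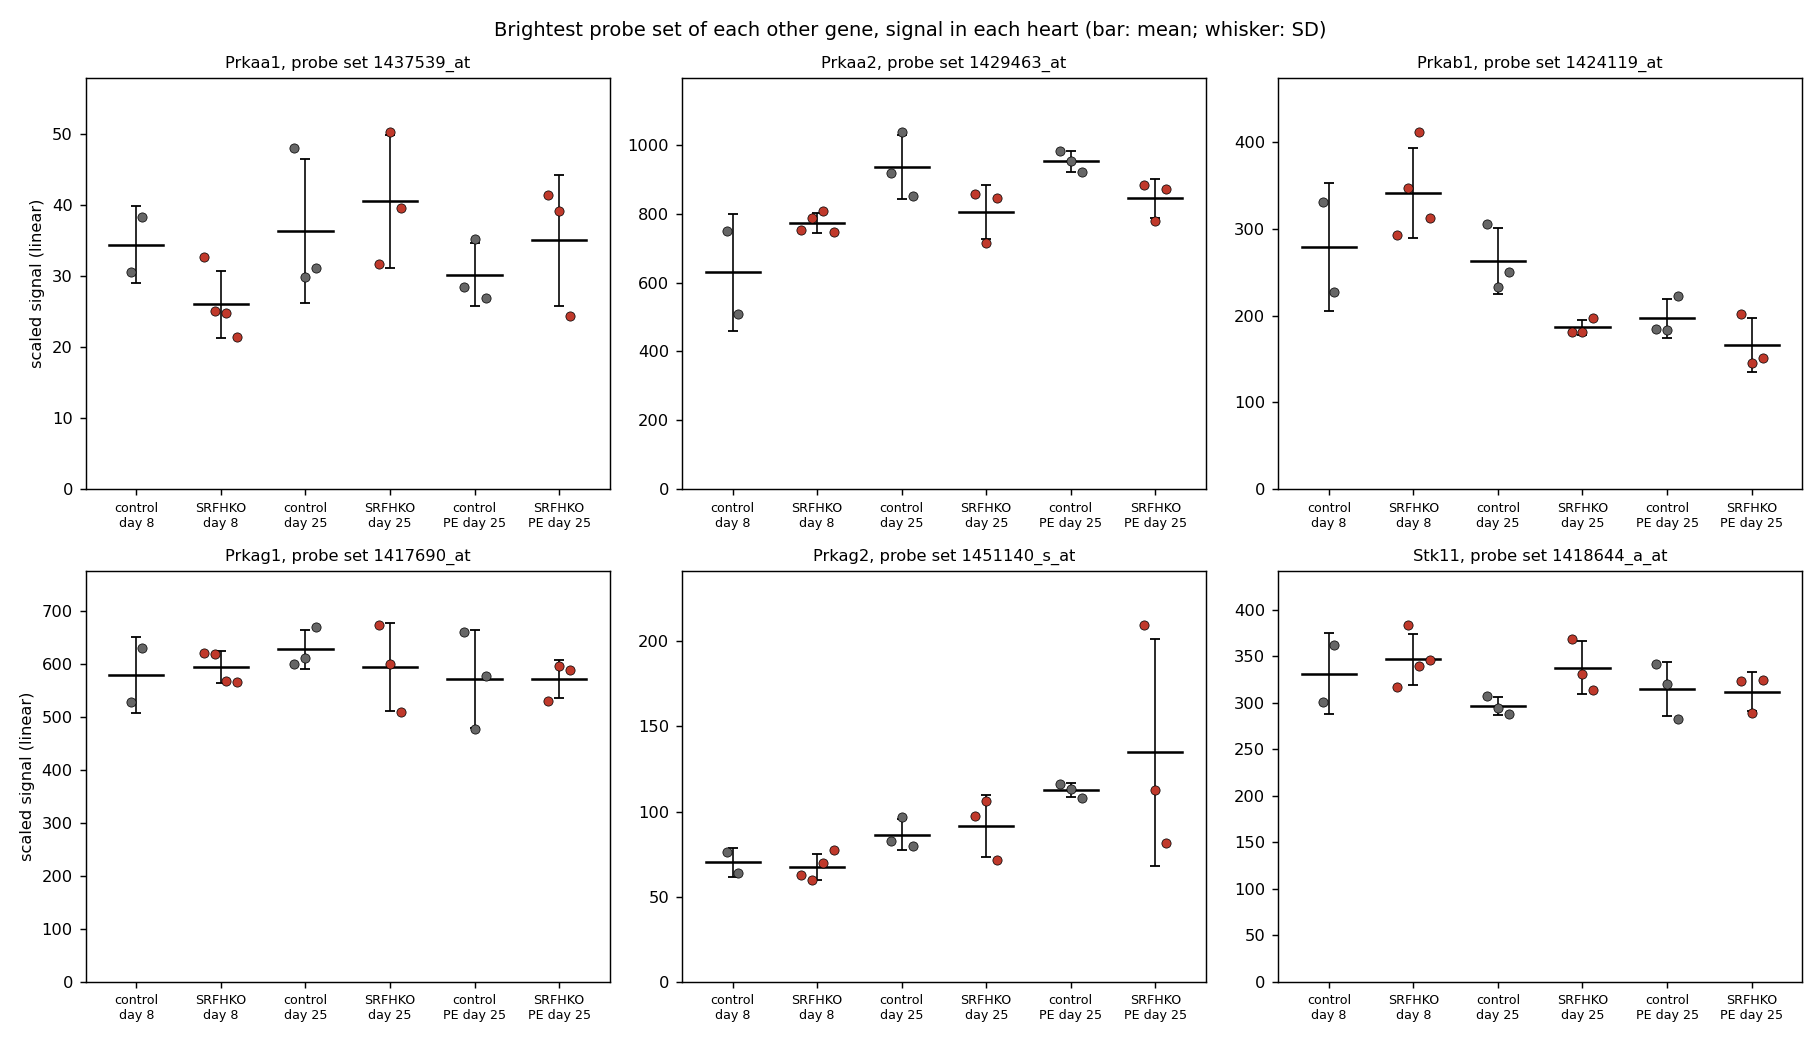
Scaled signal (linear, arbitrary units) of 1 probe set for each of the other 6 genes in each heart, by group, with control hearts in grey and SRFHKO hearts in red, bars for means and whiskers for SD. For Prkab1 the SRFHKO hearts of day 25 without PE lie at 181 to 197, below the control hearts of day 25 without PE and overlapping the control hearts with PE, whereas for Prkag1 the groups overlap.

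Across the 9 comparisons the 13 probe sets outside Prkab2 ranged from -0.48 to 0.28 between the genotypes at day 25 without PE, from -1.30 to 0.32 with PE, and from -0.65 to 0.46 for PE in SRFHKO hearts. Averaged over PE, 0 of 16 members were called between the genotypes by limma, where 5.84% of all probe sets were, and 5 had an unadjusted p under 0.05, against 20.9% of all probe sets. Averaged over genotype, 0 were called for PE, where 0.552% were, and 4 had an unadjusted p under 0.05, against 12.0%.

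**Figure D4:**
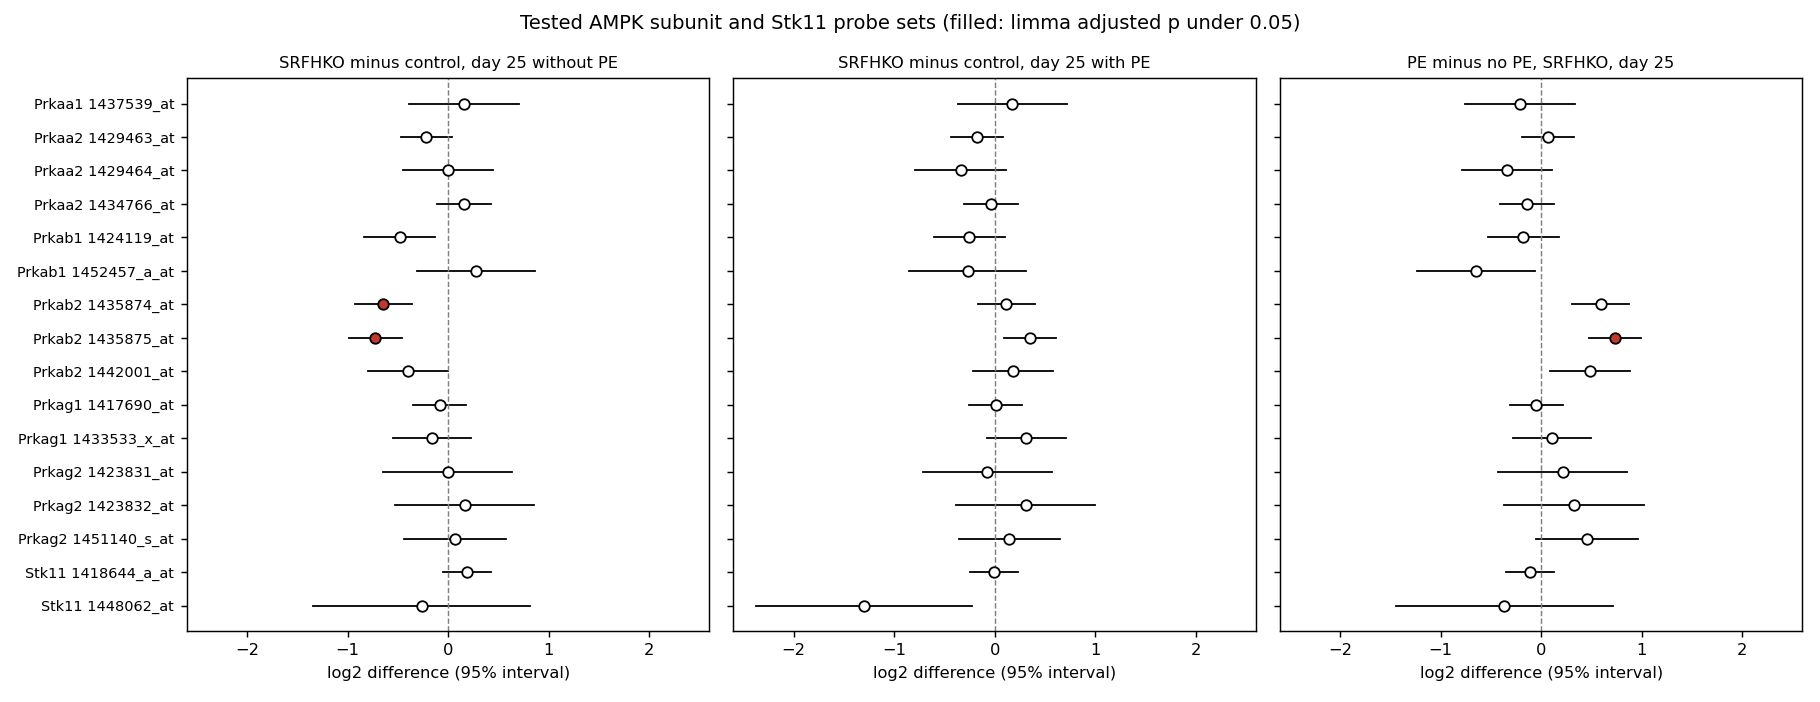
Log2 difference with its 95% interval for the 16 tested probe sets in 3 comparisons of day 25. Filled points have a limma adjusted p under 0.05. They are 2 Prkab2 probe sets at -0.72 and -0.65 in the left panel and 1 at 0.73 in the right panel.

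Other genes of the pathway were read through 9 lists with 59 genes, of which 52 were measured above the filter, each through 1 probe set. They cover partners and alternatives of LKB1, the gamma-3 gene, kinases related to AMPK, its targets in lipid, glucose, growth and mitochondrial control, the sestrins with folliculin's partners, and enzymes of adenine nucleotides. Between the genotypes limma called 0 of 52 at day 8 and 0 of 52 in each condition of day 25, while 6 (day 8), 11 (no PE) and 12 (PE) had an unadjusted p under 0.05. Over all probe sets the shares under it were 11.8%, 17.4% and 12.8%. The share of the lists was near this background at day 8 and larger in both conditions of day 25. The lists hold the brightest probe set of each gene, whereas the background covers all probe sets tested. For PE in control hearts, PE in SRFHKO hearts and the difference between them the counts were 0 called and 6, 9 and 2 unadjusted, against 10.1%, 9.82% and 7.40% of all probe sets. For the change between days they were 0 and 4, against 12.3%, and for PE averaged over genotype 0 and 14, against 12.0%. As shares of the 52, the unadjusted counts were above the background for PE in SRFHKO hearts and for PE averaged over genotype. They were near it for PE in control hearts, and below it for the difference between PE responses and the change between days. The median difference of the 52 at day 25 without PE was -0.07, against -0.04 over all probe sets. Prkag3, gamma-3, a subunit of skeletal muscle and the one gene of its list, was near the filter and differed by 0.86 ± 0.52 there (adjusted p = 0.407).

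Averaged over PE, 3 of the 52 were called between the genotypes at day 25, a share near the 5.84% of all probe sets called. In the fit with 1 probe set per gene, 996 of 12610 probe sets were called. At an unadjusted p under 0.05 the count was 19 of 52, a larger share than the 20.9% of all probe sets. Map3k7, which encodes the kinase TAK1 that can also phosphorylate AMPK, rose. Its signal was 342, 331 and 324 in control and 372, 414 and 483 in SRFHKO hearts, and with PE 452, 367 and 399 against 592, 458 and 491. SRFHKO hearts were higher within each condition without overlap (0.34 ± 0.09, adjusted p = 0.0385). Nuak1, an AMPK-related kinase activated by LKB1, also rose, from 260, 290 and 341 to 317, 386 and 366 without PE. With PE it was 422, 327 and 383 in control and 417, 768 and 577 in SRFHKO hearts, and both pairs of groups overlapped (0.43 ± 0.12, adjusted p = 0.0405).

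Ak1, the muscle adenylate kinase that forms AMP and ATP from ADP, fell. It was 1962, 2035 and 1790 in control and 1900, 1216 and 1184 in SRFHKO hearts, which overlapped. With PE it was 1768, 1724 and 1639 against 1322, 1336 and 1529, without overlap (-0.38 ± 0.10, adjusted p = 0.0295). With array brightness as a covariate none of the 3 genes passed, with adjusted p of 0.348, 0.280 and 0.198. Nor did they pass without an intensity trend (0.0833, 0.0894 and 0.0857). Calls over all probe sets in this comparison went from 1578 to 160 with the covariate and to 813 without the trend. Ak1 lost its call in 9 of 21 alternatives, Map3k7 in 13 and Nuak1 in 12. Among arrays left out singly, Ak1 was lost without control replicate 1 or 2, control with PE replicate 1, SRFHKO replicate 2 or 3, or SRFHKO with PE replicate 1 or 2 (-0.37 to -0.32, adjusted p 0.0573 to 0.0870). Map3k7 was lost without any control replicate, control with PE replicate 2 or 3, SRFHKO replicate 2 or 3, or SRFHKO with PE replicate 1 (0.28 to 0.35, adjusted p 0.0600 to 0.110). Nuak1 was lost without control replicate 1 or 2, control with PE replicate 2 or 3, SRFHKO replicate 2 or 3, or SRFHKO with PE replicate 2 or 3 (0.33 to 0.44, adjusted p 0.0651 to 0.111). Of the cardiomyocyte markers, 4 of 8 were called lower in the same comparison (Actc1, Myh6, Myl2 and Tnni3, named after their values were seen), and their part in the Ak1 result was not tested.

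For each member, the 2 other genes whose log2 level correlated most with it over the 18 arrays are given as a description, since the arrays share groups, days and brightness. For Prkab2 these were Arhgef2 (r = 0.850) and Crybg1 (r = 0.815). Prkab1 was most like Pitrm1 (r = 0.900) and Ripor2 (r = 0.891). Prkaa2 was most like Cysrt1 (r = 0.861) and Rac1 (r = 0.851), and Prkaa1 like Atl3 (r = 0.792) and Psat1 (r = 0.788). Prkag1 was most like B9d2 (r = 0.825) and Dlg2 (r = 0.783), and Prkag2 like Pmp22 (r = 0.843) and Mfap5 (r = 0.825). Stk11 was most like Pabpn1 (r = 0.796) and Bnip1 (r = 0.773).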

How the data were processed

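The deposited intensity of 45101 probe sets on 18 arrays is linear and came from GCOS, the Affymetrix scanner software, per the submitters' processing notes, with version and signal algorithm not given in the sources used here. Per the labels' protocols, RNA was extracted with Trizol. Each array was scaled to a common 2% trimmed mean of 90.6, 2 was added as pseudocount and log2 taken, so fold changes understate those of dim genes. The 64 control probe sets and those with a mean below the 40th percentile (scaled signal 9.96) were left out, leaving 27000. The number of arrays limits the precision.

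Tests used R 4.3.3 with limma 3.58.1 (1 mean per group over 18 arrays, eBayes with an intensity trend, Benjamini-Hochberg adjustment, 9 comparisons). The fit was also run on simulated data, but only for some of the comparisons. These were the genotypes at day 25 without PE, PE in SRFHKO hearts, and the difference between PE responses. Gene names came from the platform annotation, with symbols updated through gene IDs to RefSeq names (34754 of 34945 probe sets with 1 symbol). Replicates are called biological in the titles.

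Named were all probe sets annotated to 1 of the 7 genes alone, every pathway gene past the threshold, and the 2 genes most like each member. Members and lists were chosen with earlier results of these data known. Alternatives covered normalization, pseudocount, filter, 1 probe set per gene, the groups fitted, the variance trend, array brightness, a replicate block and each array left out.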

Additional observations from a re-analysis of the deposited data

Results flagged for a closer look

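The PE response of Prkab2 1435875_at ran in opposite directions in the genotypes: every SRFHKO heart with PE was above every SRFHKO heart without it, and every control heart with PE was below every control heart without it. The difference between the responses was 1.07 on the log2 scale, and its own test did not pass (limma adjusted p = 0.0644).

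In the 4 SRFHKO hearts of day 8, replicate 3 stood apart from the others for Prkaa2 1434766_at, with a scaled signal of 741 against 840, 855 and 844. The 17 member probe sets were looked at in this way in that group, and chance flags about 1 in 20.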

How the results depend on the processing

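At day 25 without PE the count of 2 members called became 1 with 1 probe set per gene, without the intensity trend and with array brightness as a covariate. It became 0 with only the compared groups fitted. Calls over all probe sets went from 591 of 27000 to 295 of 12610 with 1 probe set per gene. They went to 159 without the trend, 60 with brightness and 93 with only the compared groups. The count of 1 for PE in SRFHKO hearts became 0 with only the compared groups and without the trend. Calls over all probe sets went from 50 to 20 and to 2 in those fits. The count of 0 for the difference between PE responses became 1 with 1 probe set per gene and with array brightness as a covariate. Calls over all probe sets went from 1 of 27000 to 3 of 12610 and 4 of 27000. With arrays left out in turn, the counts ran from 0 to 1 at day 8, from 1 to 2 at day 25 without PE, from 0 to 2 for PE in SRFHKO hearts, and from 0 to 1 for the change between days, for the genotypes averaged over PE and for PE averaged over genotype.

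Prkab2 1435875_at kept its genotype call at day 25 without PE in 14 of 15 alternatives, between -0.82 and -0.63, and 1435874_at in 8 of 14. Without the trend, 1435874_at had an adjusted p of 0.0539. No result listed here reversed. Every member difference that passed in the main fit or under any alternative was listed, so the other 134 are by construction those that never passed. Of these 134, 60 changed sign in at least 1 alternative, the largest of them 0.37 in size.

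Same-numbered replicates did not deviate together (40 pairs, r from -0.05 to 0.08), so the numbers were not taken to pair the hearts. Array measures did follow the numbers at day 25: in each of the 4 groups replicate 2 was the brightest and replicate 3 the dimmest array, and replicate 2 had the lowest Gapdh 3′ to 5′ ratio. With a replicate block the counts of member calls were unchanged in all 9 comparisons (2 at day 25 without PE, 1 for PE in SRFHKO hearts), and Map3k7 lost its call (adjusted p = 0.0524). Signal near the filter limit, as for Stk11 1448062_at, is the least precise.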
